A study of Mus musculus with 4 samples.

Results

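The Hox-B cluster genes were described here in mouse embryonic stem (ES) cells that express the leukaemia fusion protein Nup98-HoxA9 and in their control lines. The members are all 10 protein-coding Hox genes of the cluster (Hoxb1, Hoxb2, Hoxb3, Hoxb4, Hoxb5, Hoxb6, Hoxb7, Hoxb8, Hoxb9 and Hoxb13), each found by the RefSeq transcript of its array probes. They were 10 of the 20284 gene symbols that could be named on the array, and were read by 11 of its 55681 probes. Hox genes encode homeodomain transcription factors that give cells their position along the head-to-tail axis of the embryo. They lie in 4 clusters, and within a cluster the order of the genes follows the order of their expression, from anterior and early (Hoxb1) to posterior and late (Hoxb13). In undifferentiated ES cells the clusters are held silent by Polycomb complexes, and retinoic acid is a known inducer of the anterior Hox-B genes.

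The study used EB3 mouse ES cells, grown on gelatin with the cytokine LIF, and asked which genes the fusion protein turns on. The lines were parental ES (EB3 without a transgene), Nup98HoxA9#1 and Nup98HoxA9#9 (2 clones with a FLAG-tagged fusion of the FG-repeat part of human Nup98, a nuclear pore protein, to the C-terminal part of HoxA9), and HoxA9-Ct (FLAG-tagged, the same HoxA9 part with its homeodomain but without Nup98). The transgenes came on a Tol2 transposon and the transgenic lines were selected with hygromycin, while the parental line went through neither step. Each line was measured once, on 1 one-colour array of the same slide and scan, and each transgenic line is a single clone, so transgene, clone and culture cannot be told apart for HoxA9-Ct ES or between the clones.

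The array gives a fluorescence intensity per spot, called the processed signal, from which background and spatial trend were removed. The Feature Extraction software also states an error for each spot and calls a spot well above background or not. Between 49.9% and 53.0% of the 59305 spots were well above background per array, and the 75th percentile of the signal was 209 to 253. Ratios below are log2 differences of signals after each array was set relative to its 75th percentile. Signals of different probes cannot be set against each other, so each gene was compared only between lines. The 15 ES cell markers, among them Pou5f1, Nanog and Sox2, were well above background on all 4 arrays.

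The RefSeq promoter table used here (build GRCm38.p6) listed 3 of the members, Hoxb8, Hoxb4 and Hoxb1, and the 250 bases before the start of each are shown so that they can be read beside the signals: Hoxb8 and Hoxb4 were well above background in both clones, and Hoxb1 in no line. Capitals mark every match, on either strand, to 6 short motifs: TAAT (a homeodomain core), TTTAT (the core preferred by HoxA9 and other posterior Hox proteins), TGATNNAT (a paired Hox and Pbx site), TGACAG (Meis), CCAAT (NF-Y) and CACGTG (USF). All windows lie on the plus strand: chr11:96281655-96281904 for Hoxb8, chr11:96318017-96318266 for Hoxb4 and chr11:96365508-96365757 for Hoxb1.
Hoxb8: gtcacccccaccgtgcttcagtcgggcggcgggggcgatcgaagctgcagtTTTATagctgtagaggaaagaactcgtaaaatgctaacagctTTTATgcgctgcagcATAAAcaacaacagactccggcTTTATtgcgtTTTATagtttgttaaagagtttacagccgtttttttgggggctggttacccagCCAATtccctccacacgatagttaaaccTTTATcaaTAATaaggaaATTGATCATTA
Hoxb4: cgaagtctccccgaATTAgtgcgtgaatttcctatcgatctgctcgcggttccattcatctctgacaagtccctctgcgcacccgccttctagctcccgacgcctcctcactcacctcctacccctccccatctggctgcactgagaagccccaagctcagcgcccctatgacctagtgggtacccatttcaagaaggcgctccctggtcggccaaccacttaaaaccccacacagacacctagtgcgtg
Hoxb1: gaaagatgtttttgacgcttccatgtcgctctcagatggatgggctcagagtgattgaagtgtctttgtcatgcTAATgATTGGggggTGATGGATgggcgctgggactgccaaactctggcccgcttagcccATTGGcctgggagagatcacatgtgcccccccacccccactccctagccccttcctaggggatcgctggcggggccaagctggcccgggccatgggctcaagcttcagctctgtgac

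The Hoxb8 window held 6 matches to TTTAT, a number reached by 0.393% of the 32851 windows of the same length in the table, while 37.3% held at least 1. It also held 2 matches to TAAT (at least 2 in 30.8% of windows, at least 1 in 54.9%). There was 1 match to CCAAT (at least 1 in 33.8%) and 1 to TGATNNAT (7.68%), the last sharing a base with the TAAT match that ends at the start of the gene. Hoxb4 held 1 match to TAAT and 0 to TTTAT. Hoxb1 held 1 match to TAAT, 1 to TGATNNAT, 2 to CCAAT and 0 to TTTAT. None of the 3 windows held TGACAG (15.9% of windows) or CACGTG (6.02%). The share of G and C was 44.4% for Hoxb8, 58.0% for Hoxb4 and 59.2% for Hoxb1, against a median of 52.4% over all windows. A match is a string of letters in these windows and was not tested for binding.

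In both Nup98-HoxA9 clones 9 of the 10 Hox-B genes were well above background, all but Hoxb1. In parental ES 1 gene was, Hoxb9, and in HoxA9-Ct ES 2 were, Hoxb3 and Hoxb9. Thus 7 genes (Hoxb2, Hoxb4, Hoxb5, Hoxb6, Hoxb7, Hoxb8 and Hoxb13) were well above background in both clones and in neither other line, which was so for 1.07% of the 55562 probes with a value on every array. In bulk RNA a high signal in all cells and a higher signal in some of them cannot be told apart, nor can fewer such cells and less RNA per cell.

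**Figure D1:**
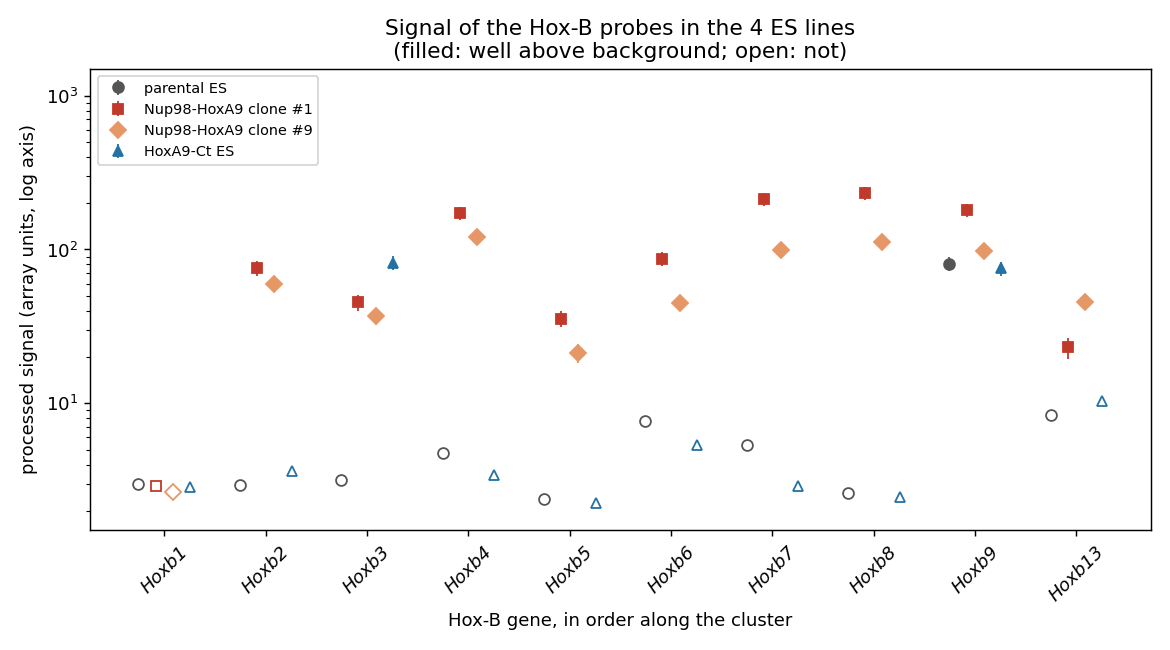
Processed signal (array units, log axis) of the probe read for each Hox-B gene, in order along the cluster, on the 4 arrays. Filled symbols are well above background, open symbols are not, and bars are the software's error per spot; 9 genes have filled symbols in both clones, and Hoxb9 alone has them in all 4 lines.

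Each clone exceeded 10 times the parental signal at 5 of the 10 genes (Hoxb2, Hoxb3, Hoxb4, Hoxb7 and Hoxb8), against 0.0900% of all probes. Clone #1 alone passed this size at 7 genes and clone #9 at 5. Since parental ES was dim at all of them, each fold is better read from its lower bound. The bound replaces the parental value by the detection limit of that array, here the lowest scaled signal of any probe called well above background. Some dim probes lie above this level, and the error of the spots is left out. The bound, written as "at least" below, is therefore an estimate and not a guaranteed minimum. As bounds, 3 genes (Hoxb4, Hoxb7 and Hoxb8) stayed over 10-fold for the mean of the clones, and 0 did so in both clones at once. In that order the bounds were 15.0, 18.6 and 20.3 in clone #1, and 9.18, 7.56 and 8.59 in clone #9. Against HoxA9-Ct ES 4 genes (Hoxb2, Hoxb4, Hoxb7 and Hoxb8) passed 10-fold in both clones, against 0.0828% of all probes. Over the 10 genes the log2 ratio to parental ES had a median of 3.91 for clone #1 and 3.21 for clone #9, but 0.05 for HoxA9-Ct ES. Over all probes it was -0.10, -0.27 and 0.06 in the same order.

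In the fit of Nup98-HoxA9 ES against parental ES, limma called 8 of the 10 genes higher at a Benjamini-Hochberg adjusted p of 0.05 (all but Hoxb1 and Hoxb9), against 0.781% of all probes. Against HoxA9-Ct ES it called 6 (Hoxb2, Hoxb4, Hoxb5, Hoxb6, Hoxb7 and Hoxb8), against 0.673%. These calls rest on 1 residual degree of freedom and on 1 SD (0.454 on the log2 scale) that limma gave to all probes. In a fit to the 30517 probes that are not dim on every array, 0 of the members and 0 of all probes were called, with adjusted p of 0.269 to 0.889 for the members, while 8 members and 2224 probes had an unadjusted p under 0.05. With quantile normalization over all probes 0 members were called as well, with 6 at an unadjusted p under 0.05.

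Hoxb1, the most anterior member and a regulator of hindbrain segment identity, was read by 1 probe with 10 spots. The mean processed signal was 2.99 in parental ES and 2.85 in HoxA9-Ct ES, and 2.91 in clone #1 and 2.66 in clone #9, and 0 of the spots kept on any array were well above background. A single spot of clone #9, at 34.4, was marked as an outlier and left out, while the other 9 spots on that array lay between 2.36 and 3.21. Hoxb1 was therefore not detected in any line. Its ratios, which enter the medians over the 10 genes and the plots of ratios, compare dim signals and are not read as a fold.

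Hoxb2, another hindbrain gene, had a processed signal of 2.93 ± 2.95 (software error, 1 spot) in parental ES and 3.62 ± 2.85 in HoxA9-Ct ES, and 75.6 ± 8.02 in clone #1 and 59.7 ± 6.51 in clone #9. Both clones were high and both other lines were close to their own error. The mean of the clones was at least 5.49-fold above parental ES (limma adjusted p = 1.12e-12) and at least 5.33-fold above HoxA9-Ct ES.

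Hoxb3 acts in the hindbrain and in blood precursors and was read by 2 probes that gave different results. The brighter probe had 3.15 ± 3.16 in parental ES and 81.9 ± 8.73 in HoxA9-Ct ES, and 45.4 ± 5.33 in clone #1 and 37.1 ± 4.57 in clone #9. It was thus the only member whose highest signal was in HoxA9-Ct ES, with the clones between that line and the dim parental line. The clones were at least 3.35-fold above parental ES (adjusted p = 3.16e-08). The other probe had 2.47 in parental ES, 2.35 in HoxA9-Ct ES, 9.86 in clone #1 and 3.61 in clone #9, and no array had it well above background.

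Hoxb4, known for its role in the self-renewal of blood stem cells, had 4.74 ± 2.69 in parental ES and 3.43 ± 2.60 in HoxA9-Ct ES, and 172 ± 17.4 in clone #1 and 120 ± 12.2 in clone #9. Its promoter window, like that of Hoxb1, held 0 matches to TTTAT. Hoxb4 was well above background in the clones alone. The mean of the clones was at least 11.8-fold above parental ES (adjusted p = 2.65e-15) and at least 11.4-fold above HoxA9-Ct ES.

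Hoxb5 and Hoxb6 pattern the neck and upper trunk. Hoxb5 had 2.40 ± 2.40 in parental ES and 2.26 ± 2.27 in HoxA9-Ct ES, and 35.6 ± 4.14 in clone #1 and 21.2 ± 2.996 in clone #9. The clones were at least 2.25-fold above parental ES (adjusted p = 2.18e-07), a low bound because the clones themselves were close to the background limit. Hoxb6 had 7.72 ± 2.93 in parental ES and 5.33 ± 2.80 in HoxA9-Ct ES, and 87.3 ± 9.09 in clone #1 and 44.7 ± 5.11 in clone #9. Both clones were high again, at least 5.10-fold above parental ES (adjusted p = 2.92e-05) and at least 4.96-fold above HoxA9-Ct ES, and clone #1 was 2.22-fold above clone #9 after scaling.

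Hoxb7 and Hoxb8 act in the trunk, and Hoxb8 is also known for holding back the differentiation of myeloid cells. Hoxb7 had 5.34 ± 3.07 in parental ES and 2.88 ± 2.89 in HoxA9-Ct ES, and 213 ± 21.5 in clone #1 and 98.7 ± 10.2 in clone #9. It was well above background in the clones alone, and the mean of the clones was at least 11.8-fold above parental ES (adjusted p = 3.11e-14). Hoxb8, whose promoter window held the 6 TTTAT matches, had 2.61 ± 2.62 in parental ES and 2.47 ± 2.48 in HoxA9-Ct ES, and 232 ± 23.3 in clone #1 and 112 ± 11.5 in clone #9. Its log2 ratios to parental ES were 6.52 in clone #1 and 5.28 in clone #9 as measured, and the mean of the clones was at least 13.2-fold above parental ES (adjusted p = 8.01e-23) and at least 12.8-fold above HoxA9-Ct ES.

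Hoxb9, which patterns the thorax, was the only member well above background on every array. Its processed signal was 80.6 ± 8.55 in parental ES and 75.5 ± 8.05 in HoxA9-Ct ES, and 180 ± 18.2 in clone #1 and 98.0 ± 10.12 in clone #9. Only clone #1 stood apart, at a log2 ratio of 1.20 to parental ES, while clone #9 was at 0.14 and HoxA9-Ct ES at 0.04. limma did not call Hoxb9 for the mean of the clones (log2 ratio 0.67, standard error 0.56, adjusted p = 1.00).

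Hoxb13, the most posterior member and separated from the others by a wide gap, had 8.39 ± 3.15 in parental ES and 10.3 ± 3.08 in HoxA9-Ct ES, and 23.1 ± 3.53 in clone #1 and 45.7 ± 5.29 in clone #9. It was the only member detected with its higher signal in clone #9. The clones were at least 2.65-fold above parental ES (adjusted p = 0.0462) and at least 2.58-fold above HoxA9-Ct ES, where limma made no call (adjusted p = 0.260).

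**Figure D2:**
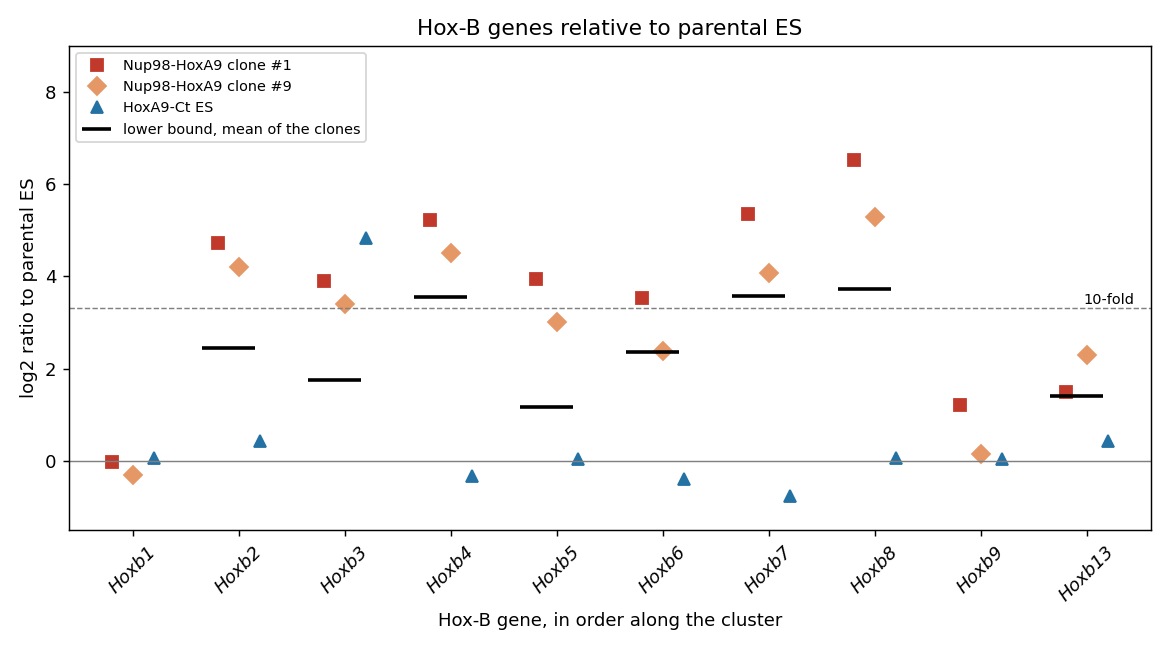
log2 ratio to parental ES of each Hox-B gene in the 2 Nup98-HoxA9 clones and HoxA9-Ct ES; black bars are the lower bound for the mean of the clones where the parental signal was dim, and the dashed line marks 10-fold. The bounds of Hoxb4, Hoxb7 and Hoxb8 lie above the line, and HoxA9-Ct ES lies near 0 except at Hoxb3.

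The comparison of HoxA9-Ct ES with parental ES asks what the HoxA9 part does without Nup98. The only member more than 2-fold higher in HoxA9-Ct ES was Hoxb3, against 3.64% of all probes, and it was also the only member called by limma, against 0.216% (adjusted p = 2.18e-10). This call, of 1 array against 1 array, was lost in the fit without probes that are dim on every array (adjusted p = 0.513). HoxA9-Ct ES was at least 7.58-fold above parental ES at the brighter Hoxb3 probe, while the other probe was dim in both lines, at a log2 ratio of 0.06. The spot of the brighter probe lies in row 382 of 384. Of 6780 single-spot probes in the last eighth of the rows, 0.295% had over 10 times the parental signal in HoxA9-Ct ES, against 0.0372% of 48350 in the other rows. The part of this position in the Hoxb3 signal was not tested. Hoxb4 and Hoxb9 also lie there (rows 370 and 371), at log2 ratios of HoxA9-Ct ES to parental ES of -0.33 and 0.04. The shares with over 10 times the parental signal in both clones were 0.103% in the last eighth and 0.0869% elsewhere. The log2 ratios of HoxA9-Ct ES to parental ES at the other 9 members ran from -0.76 to 0.44, and for 8 genes, Hoxb1 included, this is a difference between 2 dim signals.

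The clones differed from each other along the cluster. Clone #1 had the higher scaled signal at 8 of the 9 genes detected in both, and clone #9 at Hoxb13. From Hoxb2 onward the log2 difference of clone #1 minus clone #9 was 0.53 ± 0.22 at Hoxb2, 0.48 ± 0.25 at Hoxb3 and 0.71 ± 0.21 at Hoxb4, where ± is the software's error of the difference and not a spread between cultures. Through the middle of the cluster it was 0.93 ± 0.26 at Hoxb5, 1.15 ± 0.22 at Hoxb6, 1.30 ± 0.21 at Hoxb7 and 1.24 ± 0.21 at Hoxb8. At the posterior end it was 1.06 ± 0.21 at Hoxb9 and -0.80 ± 0.28 at Hoxb13. The difference was thus smaller at Hoxb2 to Hoxb4 than at Hoxb6 to Hoxb9 and turned at Hoxb13. At 8 of the 9 genes (all but Hoxb3) it was over 2 times the software's error. The share of all probes past this cut was not computed, so the count is not read as particular to Hox-B. The median was 0.93, against 0.08 over the 26871 probes that both clones had well above background, with quartiles of -0.13 and 0.23.

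More than 2-fold higher in clone #1 were 4 members (Hoxb6, Hoxb7, Hoxb8 and Hoxb9), against 0.893% of those probes and 1.53% of the 8500 of them with a mean signal in the members' range. Clone #9 was 1.74-fold higher at Hoxb13, and 7.51% of probes were more than 1.5-fold higher in clone #9. With 1 array per clone the difference has no replicate check. For scale, 399 probes with 10 spots had a median SD between spots of 0.105 to 0.118 on the log2 scale within an array.

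**Figure D3:**
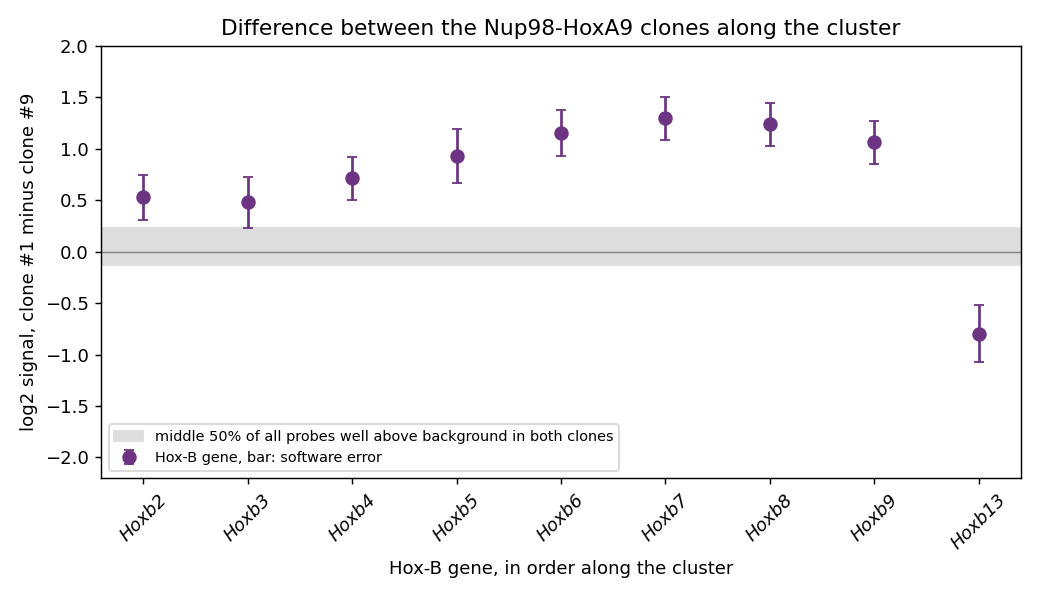
log2 difference of clone #1 minus clone #9 for the 9 Hox-B genes well above background in both clones, in order along the cluster, with the software's error as bars; the grey band is the range between the quartiles of all probes that pass the same limit. Of these genes 8 lie above the band and Hoxb13 lies below it.

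The other Hox clusters show where Hox-B differed in the same arrays, as a description without a test. Both clones exceeded 10 times the parental signal at 10 of 11 genes in Hox-A, 5 of 10 in Hox-B, 2 of 9 in Hox-C and 0 of 9 in Hox-D. The median log2 difference of clone #1 minus clone #9 over the genes well above background in both was 0.09 in Hox-A (10 genes), 0.93 in Hox-B (9), 1.94 in Hox-C (5) and -0.49 in Hox-D (2). With each fold at its lower bound where parental ES was dim, the counts became 8 in Hox-A, 0 in Hox-B, 2 in Hox-C (Hoxc4 and Hoxc6) and 0 in Hox-D. The order of Hox-B and Hox-C thus turned, though at Hoxb4, Hoxb7 and Hoxb8 clone #1 alone stayed over 10-fold. Of the paralogs of Hoxb8, Hoxc8 was well above background in clone #1 alone and Hoxd8 in no line. In the next paralog group Hoxa9 was at least 30.6-fold above parental ES and Hoxc9 at least 3.10-fold, while Hoxd9 was in no line above background and Hoxb9 was already detected in parental ES. The HoxA9 part of the transgenes can add to a Hoxa9 signal if the probe lies within it, which was not tested. In HoxA9-Ct ES, which carries the same HoxA9 part, the Hoxa9 probe used here was dim, at 5.90 against 9.61 in parental ES. The RNA level of the transgenes was not read, so this value cannot decide the question.

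Other genes inside and beside the cluster were read where a probe carries their RefSeq transcript. Probes named only by genome position were not used here. Gm53, a long noncoding RNA inside the cluster between Hoxb13 and Hoxb9, was well above background in every line, with 47.9 ± 5.43 in parental ES and 56.6 ± 6.16 in HoxA9-Ct ES, 68.5 ± 7.20 in clone #1 and 64.7 ± 6.86 in clone #9, with an adjusted p of 1.00 in limma. Of the 4 genes looked up on each side, 4 on the Hoxb1 side (Skap1, Snx11, Cbx1 and Nfe2l1) and 2 on the Hoxb13 side (Ttll6 and Atp5g1) had a probe. All 6 were detected on every array, and 0 were called higher or lower. The largest ratio among them was at Skap1, 1.78 in clone #9, with 0.54 in clone #1 and 0.94 in HoxA9-Ct ES.

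Known regulators of Hox-B genes were read from a list of 47 genes, of which 46 had a probe and 39 were well above background on all arrays. In the clones against parental ES, limma called 6 of the 46 higher and 0 lower, beside 0.781% of all probes called higher. The list was chosen with earlier results known, and nothing is read from the share. Of 8 retinoic acid genes 4 were called: Aldh1a2 (which makes retinoic acid, with a log2 ratio to parental ES of 2.11 in clone #1 and 3.96 in clone #9), Dhrs3 (a retinal reductase, 2.03 and 2.92), Rarb (a retinoic acid receptor) and Cyp26a1 (which degrades retinoic acid). Parental ES was dim at the last 2 of these, and the clones were at least 2.18-fold (clone #1) and 5.20-fold (clone #9) above it at Rarb and at least 1.61-fold and 4.88-fold at Cyp26a1. All 4 were higher in clone #9 than in clone #1, as were the other regulators called, Cdx2 and Pbx3. That order rests on 1 array per clone, and nothing about the Hox-B genes is read from it. Of the Cdx genes, which activate central Hox genes, Cdx2 was called. It was dim in parental ES (2.55) and HoxA9-Ct ES (11.8), and the clones were at least 1.47-fold and 2.26-fold above parental ES. Of 8 Hox cofactor genes Pbx3 was called, at log2 ratios of 2.65 and 2.88. Of 13 Polycomb genes, 8 Trithorax genes and 6 segmental regulators 0 were called. As for the members, 0 of these calls remained in the fit without probes that are dim on every array. The part of these genes in the Hox-B signals was not tested.

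Markers of other cell types were read beside these results. Of 8 endoderm genes 6 were well above background in parental ES and in each clone and 3 in HoxA9-Ct ES, and their summed scaled signal was 1.12 in parental ES and 0.530 in HoxA9-Ct ES, and 3.55 in clone #1 and 4.52 in clone #9 (1 is the 75th percentile of an array). Gata6 (log2 ratios to parental ES of 2.23 in clone #1 and 2.53 in clone #9) and Sox17 (1.89 and 2.14), regulators of endoderm, were called higher, while Afp and Ttr were dim on every array. Of 8 mesoderm and primitive streak genes 0 were called, the sum was 1.19 to 1.53, and 4 (T, Mixl1, Mesp1 and Wnt3) were dim on every array. Of 8 neural genes Pax6 was called lower (parental ES at least 1.94-fold above the clones, where it was dim), the sum was 2.13 to 2.61, and 3 (Neurog2, Olig2 and Pax3) were dim on every array. Of 8 feeder or fibroblast genes Pdgfra was called higher (at least 6.48-fold in the mean of the clones), and the sum was 7.73 to 17.9, most of it from Thy1. Without Thy1 the sum of the other 7 was 0.336 in parental ES and 0.281 in HoxA9-Ct ES, and 0.632 in clone #1 and 1.21 in clone #9, with Twist2 and Postn dim on every array. The sum of the 15 ES cell genes was 1620 in clone #9 and 1915 to 1923 in the other lines. Tdh, a bright gene of this list, had the lowest log2 ratio to parental ES in clone #9, at -1.11. The median over the 15 genes in clone #9 was -0.06, and limma called 0 of them. In the fit that called these markers, 0.781% of all probes were called higher, and 347 of 55562 lower. The calls of Gata6, Sox17, Pax6 and Pdgfra were lost in the fit without probes that are dim on every array. There the adjusted p was 0.346 for Gata6, 0.392 for Sox17, and 0.277 for both Pax6 and Pdgfra. The part of other cell types in the Hox-B signals was not tested.

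Outside the Hox clusters, the 5 genes with the profile nearest to the median profile of the 9 detected Hox-B genes, by Euclidean distance of log2 values over the 4 lines (dim signals as measured), each at its brightest probe, were Cbr2 (0.631), Tmem132c (0.643), Runx1 (0.879), Bhmt (1.06) and Apobec2 (1.09). Cbr2, a carbonyl reductase, had processed signals of 2.48, 44.4, 40.1 and 2.34 in parental ES, clone #1, clone #9 and HoxA9-Ct ES. Runx1, a transcription factor needed for blood formation, had 3.13, 28.1, 25.01 and 3.01 in the same order. Both were well above background in the clones alone, as were 7 of the Hox-B genes. Since they were chosen by their profile on the same arrays, this is no separate result. Among the members themselves the distance to their median profile ran from 0.429 at Hoxb5 to 4.02 at Hoxb3. Only Hoxb5, Hoxb2 (0.670) and Hoxb6 (0.824) were nearer to it than the fifth of these genes, and Hoxb3 and Hoxb9 (3.07) were the farthest.

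The ratios of dim genes depended on how low signals were treated. For the 8 genes that limma called against parental ES, the log2 ratio of the mean of the clones ran from 1.90 at Hoxb13 to 5.90 at Hoxb8 as reported. With a floor at the detection limit of each array it ran from 1.17 at Hoxb5 to 3.72 at Hoxb8, and with a normexp background correction from 0.38 at Hoxb13 to 1.98 at Hoxb8. All 8 kept a ratio above 0 under each setting in the plot of other processing.

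**Figure D4:**
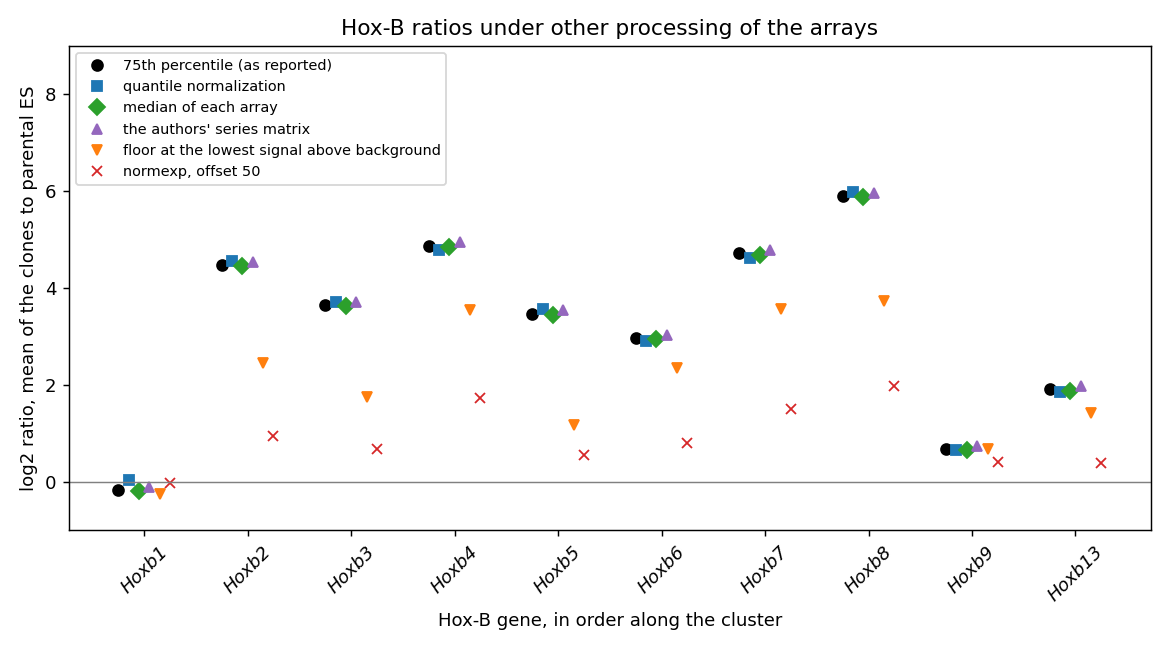
log2 ratio of the mean of the clones to parental ES for each Hox-B gene as reported and under 5 other ways of processing the arrays. Quantile normalization, the median and the authors' series matrix lie close to the reported values, while the floor and the normexp correction with an offset of 50 bring the ratios of dim genes toward 0.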

How the data were processed

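RNA of each line was labelled with Cy3 and hybridised to a SurePrint G3 Mouse GE 8×60K array. The authors extracted the images with Feature Extraction 10.10.1.1 and deposited the intensity of every spot, background-subtracted and spatially detrended but not scaled between arrays. The deposited series matrix holds intensity values that equal the processed signal times 1 constant per array (3.19 to 3.63), with a largest deviation of 0.0494% among the brighter values. Control spots and spots marked as non-uniform or population outliers (143 to 201 per array) were left out, and no spot was saturated. The log2 signal was set relative to the 75th percentile of the array and averaged over the spots of a probe. A probe was well above background when most of its spots were. Where a gene had several probes, the one with the highest mean over the arrays was used. Probes were named by RefSeq accession (26762 of 55681). The name table is of build GRCm38.p6 and the array annotation of mm9, so the table gave only symbols, gene order and promoter sequences. A lower bound sets the clones against the higher of the dim array's lowest signal called well above background and its own signal, on the log2 scale.

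Groups were compared with limma 3.58.1 (lmFit and eBayes, 3 groups) in R 4.3.3, over 55562 probes, after a test of the fit on simulated data. Parental and HoxA9-Ct ES have 1 array each and are assumed to vary like the clones. Whether lines were cultured or extracted more than once is not given in the sources used here, and the number of arrays limits the precision. Counts were made in Python 3.11.15 with pandas 2.3.3 and numpy 2.4.6. The genes named are the members, the genes inside and beside the cluster, their paralogs, listed regulators and markers, and the 5 genes with the nearest profile. The members, lists and tests were chosen with earlier results of these data known. The alternatives were normexp background correction, quantile normalization, scaling to the array median, a floor, the authors' series matrix, kept outlier spots, other probe rules, other thresholds and flags, HoxA9-Ct ES as the reference, ratios at their bounds, leaving out each clone, and other settings of limma. The normexp correction used the median signal of each spot, with an offset of 50.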

Additional observations from a re-analysis of the deposited data

How the results depend on the processing

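With 1 array per line, the size of each ratio depends on how dim signals are treated. The count of 5 genes past 10-fold in both clones became 0 with the normexp correction, 0 with the floor, 0 with ratios at their lower bound and 2 at a 20-fold threshold. It was 4 to 7 under the remaining settings and 5 to 7 without 1 clone. The median ratio of 3.56 became 0.73 with normexp, whose offset of 50 shrinks ratios of dim probes by construction, and 2.05 with the floor or the lower bounds. It was 3.21 to 3.91 without 1 clone. The median difference between the clones of 0.93 became 0.59 with normexp. The limma count against parental ES of 8 became 5 with normexp, 0 with quantile normalization (6 members with an unadjusted p under 0.05), 4 with the series matrix and 0 in the fit without probes that were dim on every array. The count against HoxA9-Ct ES of 6 became 0 with quantile normalization and 0 in that fit, with 5 and 7 members at an unadjusted p under 0.05. Why quantile normalization ends these calls was not tested. The Hoxb7 ratio of HoxA9-Ct ES to parental ES, dim in both, turned from -0.76 to 0.034 with normexp and 0.042 with the floor. Of 170 values of single genes under the alternatives, 149 moved by less than the spread between the clones. This count is not read as stability, because leaving out 1 clone must move a mean by less than that spread. The rules on outlier spots and on probes also leave most genes unchanged. Scaling to the median and the series matrix shift all genes by nearly the same amount. No limma fit without 1 clone was run, since no residual degrees of freedom are left. No paired analysis was possible because the replicate numbers are clone names or, for lines with 1 array, a default, and tie no samples together.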
